A study of Mus musculus with 4 samples.

Results

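The genes described here are 40 genes of proximal T cell receptor signalling, the steps between the receptor at the membrane and the first transcription factors. They were given as a list and were read from RNA of sorted mouse regulatory T cells (Treg, the Foxp3-expressing CD4 T cells that hold immune responses in check). A member was measured if at least 1 probe set of the array is annotated with its symbol alone, and its brightest such probe set stood for it. This held for 38 of the 40 among 22180 genes with such a probe set, and Cd247 and Lck are not analysed here. All 38 lay above the median of all probe sets on all 4 arrays, so none was set aside as dim.

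The study compared 2 arrays of Treg from mice injected with an agonist of death receptor 3, an antibody called anti-DR3, with 2 arrays from mice injected with a control antibody, labelled as an isotype control. DR3, a receptor of the tumour necrosis factor receptor superfamily, costimulates T cells. Both groups were of the strain Foxp3Luci-DTR-4(B6 Albino), received the antibody into the peritoneum, and gave CD4+Foxp3+GFP+ cells sorted 4 days later. The labels state neither age nor whether a replicate is 1 mouse, a pool or a second preparation, so p-values speak of the spread between arrays and that spread may be technical. All 4 arrays come from the same reporter strain, and a strain without it was not compared.

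When the T cell receptor binds its peptide ligand, the kinase Lck, held by the coreceptor CD4, phosphorylates tyrosines in the tails of the CD3 chains, and the kinase ZAP-70 docks there. ZAP-70 then phosphorylates the scaffold LAT, which gathers adaptors, phospholipase C gamma and exchange factors, and from there signals run to Ras, to calcium and the NFAT factors, and through protein kinase C theta to NF-kappaB. Phosphatases, ubiquitin ligases, diacylglycerol kinases and adaptors such as SLAP oppose these steps, and Treg depend on receptor signals for their function.

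Between anti-DR3 Treg and control Treg the measured difference was below 1.5-fold for all 38 genes. Among 38 members 1 passed an adjusted p of 0.05 (limma, Benjamini-Hochberg over the 12114 genes tested), or 2.63%, where 5.96% of all genes tested passed. This was Sla, which encodes the inhibitory adaptor SLAP and rose 1.32-fold, and 0 members fell. The call of Sla ended when any 1 array was left out, and calls over all genes also became fewer in each of these fits. At an unadjusted p of 0.05 in limma 10 of 38 members passed, or 26.3%, against 26.1% of all genes. The groups did not overlap for 25 of 38 members, or 65.8%, against 56.1% of all genes. These shares lie near or below those of the whole array at both p thresholds.

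The differences were small on the log2 scale. They ran from -0.35 (Prkcq) to 0.40 (Sla), with a median of 0.02 for the members and 0.01 for all genes tested. The median size of the difference, without its sign, was 0.13 for members and 0.13 for all genes. Over all genes 3.86% differed by more than 1.5-fold. The 95% interval of the difference lay wholly within 1.5-fold for 36 of 38 members, or 94.7%, and for 84.2% of all genes. The exceptions were Sla, whose interval reached 0.60, and the kinase gene Txk, whose interval reached -0.60. The median standard error of the difference was 0.082 for members and 0.092 for all genes, and smaller errors give narrower intervals.

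The split of calls over all genes was 544 higher and 178 lower, or 75.3% higher, and 348 higher and 243 lower, or 58.9% higher, once arrays had been centred on their median over genes tested. Under that centring the median of the members was -0.04 and that of the activators -0.02. The median difference of all genes, 0.01, and of the members, 0.02, is therefore below what the choice of scaling moves. Replicate arrays correlated at 0.992 (anti-DR3) and 0.989 (control antibody).

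The sorted cells carried the markers of their label, with Foxp3 at log2 intensities of 11.93 and 11.90 with anti-DR3, against 11.89 and 11.81 with control antibody. Of 5 Treg markers 1 rose (Ikzf2) and 1 fell (Il2ra). Of the 2 markers of CD8 T cells Cd8b1 rose (0.49, adjusted p = 0.0416, limma) and Cd8a lay below the median of the array. Their summed intensity was 224 and 240 with anti-DR3, against 173 and 168 with control antibody. Of 6 myeloid markers Csf1r rose, while Itgam (0.47, adjusted p = 0.0766, limma) and Lyz2 (0.43, adjusted p = 0.296, limma) did not pass. Adgre1, Cd14 and Fcgr1 lay below the median, with Adgre1 and Fcgr1 lower on both anti-DR3 arrays. The myeloid list summed to 259 and 295 with anti-DR3, against 224 and 249 with control antibody. The 5 measured B cell markers, with 0 calls, summed to 207 and 211 with anti-DR3, against 192 and 196 with control antibody, and Ms4a1, Cd79a, Pax5 and Blnk were too dim to be tested. Natural killer markers (115 and 116 with anti-DR3, against 126 and 106 with control antibody), dendritic cell markers (144 and 148 with anti-DR3, against 148 and 133 with control antibody) and the 1 measured erythroid marker, Epb42, which was too dim to be tested, gave 0 calls. Of the natural killer and dendritic cell markers only Eomes and Itgax were bright enough to be tested. CD8 T cells also express CD3 genes and most of the members below, and the part of other cells in these results was not tested. In sorted bulk RNA more cells of a type and more RNA per cell cannot be told apart.

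Among the receptor and coreceptor genes, Cd4, Cd3d and Cd3g read higher on both anti-DR3 arrays, while Cd3e and Cd28 overlapped between the groups. The 3 CD3 genes are neighbours on mouse chromosome 9, with 0 protein-coding genes between Cd3d and Cd3g and 0 between Cd3d and Cd3e in the RefSeq annotation. Cd3d and Cd3g start 1355 bases apart and are read in opposite directions, and the start of Cd3e lies 27825 bases from that of Cd3d. The 250 bases before each start are shown because 2 of these neighbours read higher together on both anti-DR3 arrays and the other one did not. They are from RefSeq (GRCm38.p6), read 5′ to 3′ on the strand of the gene, at chr9:44981536-44981785 (plus strand) for Cd3d, chr9:44980432-44980681 (minus strand) for Cd3g and chr9:45009612-45009861 (minus strand) for Cd3e. Capitals mark AGGAAG, a core of the motif of ETS transcription factors, or its reverse complement CTTCCT.
Cd3d: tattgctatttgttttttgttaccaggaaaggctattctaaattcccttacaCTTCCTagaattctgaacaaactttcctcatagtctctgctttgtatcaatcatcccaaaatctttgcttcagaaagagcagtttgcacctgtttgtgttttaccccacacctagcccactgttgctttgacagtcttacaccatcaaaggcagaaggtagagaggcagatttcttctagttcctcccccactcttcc
Cd3g: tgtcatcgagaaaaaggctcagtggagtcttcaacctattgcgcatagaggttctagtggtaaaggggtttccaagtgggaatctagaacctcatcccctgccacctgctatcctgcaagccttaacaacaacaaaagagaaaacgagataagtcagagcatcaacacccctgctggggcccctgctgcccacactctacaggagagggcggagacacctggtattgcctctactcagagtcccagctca
Cd3e: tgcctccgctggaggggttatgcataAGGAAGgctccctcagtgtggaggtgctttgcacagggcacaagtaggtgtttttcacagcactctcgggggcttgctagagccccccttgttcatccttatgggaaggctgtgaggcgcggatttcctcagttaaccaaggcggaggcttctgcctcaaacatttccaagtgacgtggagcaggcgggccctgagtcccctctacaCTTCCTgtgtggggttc
The motif occurred 1 time before Cd3d, 0 times before Cd3g and 2 times before Cd3e. Of all 32851 promoter windows of this length 29.5% held it on either strand, and of the 45 windows matched to 31 members, some of which overlap, 28 or 62.2% did. These members include Cd247 and Lck, which had no expression value here. The windows of all genes were taken whether or not the gene was tested, so the shares are a description only. The motif was chosen for this description, a match is no evidence of binding, and these letters do not separate the pair from Cd3e.

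Cd4, the coreceptor that brings Lck to the receptor, had log2 intensities of 10.98 and 10.99 with anti-DR3, against 10.71 and 10.66 with control antibody. The groups did not overlap, and the difference was 0.30 ± 0.078 (SE, n = 2 arrays per group here and below; adjusted p = 0.0776, limma). Cd3d, the delta chain, had 9.39 and 9.45 with anti-DR3, against 9.15 and 9.11 with control antibody. Its difference was 0.29 ± 0.079 (adjusted p = 0.0849, limma). Cd3g, the gamma chain, had 11.92 and 11.94 with anti-DR3, against 11.66 and 11.66 with control antibody. Both anti-DR3 arrays were again the higher ones, by 0.27 ± 0.076 (adjusted p = 0.0944, limma). None of the 3 passed the threshold.

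Cd3e, the epsilon chain that pairs with both of these chains, had 12.40 and 12.36 with anti-DR3, against 12.35 and 12.36 with control antibody. The arrays overlapped, and the 95% interval of the difference ran from -0.17 to 0.21. That of Cd3g ran from 0.08 to 0.46, so the intervals share a range, and the difference between the chains was not tested. Cd28, the costimulatory receptor, had 10.37 and 10.19 with anti-DR3, against 10.35 and 10.37 with control antibody, a difference of -0.08 ± 0.091 with an interval of -0.30 to 0.15 (adjusted p = 0.643, limma).

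**Figure D1:**
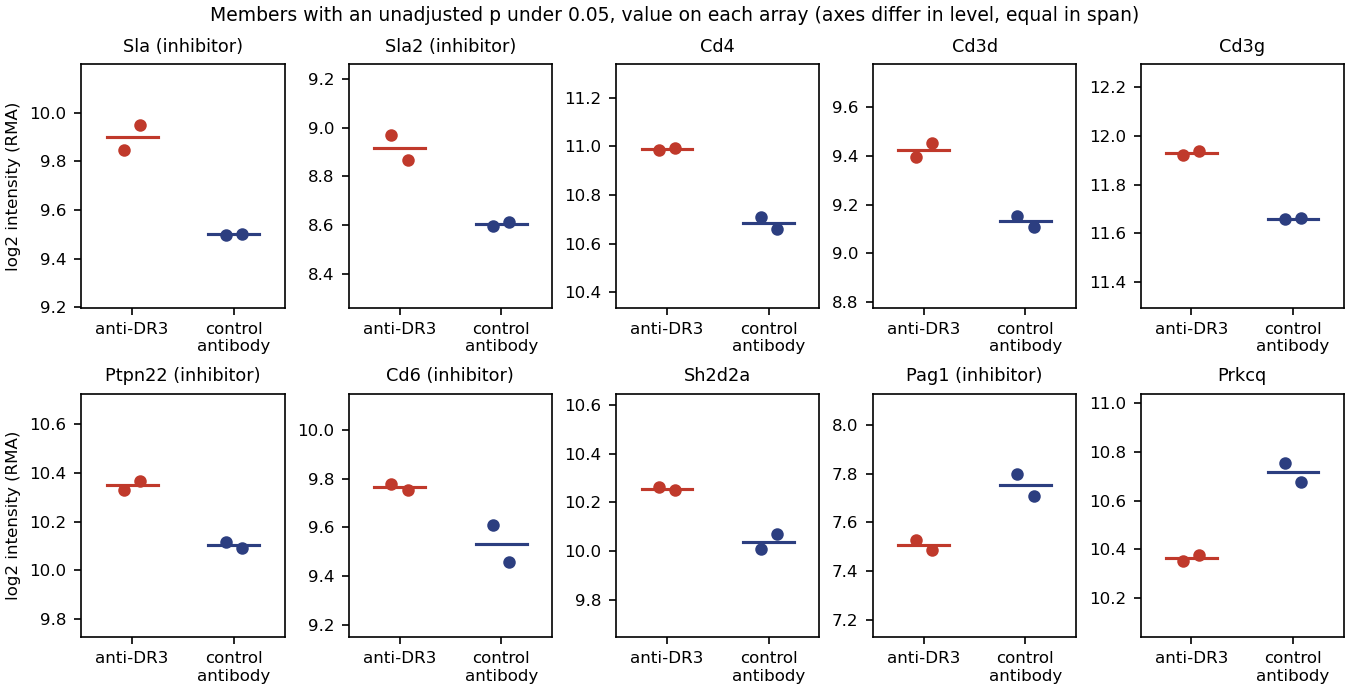
Log2 intensity on each array for the 10 members with an unadjusted p under 0.05 (limma), anti-DR3 on the left and control antibody on the right of each panel; points are arrays, lines are group means, and every panel spans 1 log2 unit. In 8 panels both anti-DR3 arrays lie above both control arrays, and in those of Pag1 and Prkcq both lie below.

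Of the 3 tyrosine kinase genes measured 0 passed. Zap70, the kinase that docks on phosphorylated CD3 tails, had 8.97 and 8.87 with anti-DR3, against 8.88 and 8.78 with control antibody. It differed by 0.09 ± 0.086 and Fyn, a kinase related to Lck, by 0.06 ± 0.082 (adjusted p = 0.566 and 0.686, limma). Their groups overlapped. Txk, a kinase of the Tec family that acts on phospholipase C gamma, had 8.65 and 8.49 with anti-DR3, against 9.01 and 8.66 with control antibody. The higher anti-DR3 array and the lower control array were nearly level, and the difference of -0.26 ± 0.14 had the widest error of all members (adjusted p = 0.290, limma). Leaving out control antibody replicate 1 made it -0.08, and leaving out replicate 2 of that group made it -0.44.

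The 10 adaptors and first effectors had a median difference of -0.05 and 0 calls. The smallest differences of the 10 were those of Lat, Plcg1, Vav1, Skap1 and Lcp2. Lat, the scaffold of the signalosome, had 10.27 and 10.28 with anti-DR3, against 10.27 and 10.35 with control antibody, a difference of -0.03 ± 0.080. Plcg1, the phospholipase that makes the messengers for calcium and Ras, had 8.51 and 8.51 with anti-DR3, against 8.54 and 8.54 with control antibody, a gap of -0.02 ± 0.076. Lcp2, the adaptor SLP-76, had 11.41 and 11.37 with anti-DR3, against 11.17 and 11.46 with control antibody, where the 2 control arrays enclosed both others. It differed by 0.08 ± 0.12, and Vav1, a signalling protein recruited by SLP-76, by -0.06 ± 0.094. A further probe set shared by Plcg1 and Zhx3 was not used. Skap1, an adaptor between the receptor and integrins, differed by -0.06 ± 0.091. Adjusted p-values of these 5 ran from 0.712 to 0.886 (limma).

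The other adaptors spread wider in both directions. Sh2d2a, the Lck-binding adaptor TSAd, had 10.26 and 10.25 with anti-DR3, against 10.01 and 10.07 with control antibody, and was 0.22 ± 0.078 higher with no overlap (adjusted p = 0.153, limma). Trat1, a membrane adaptor of the receptor complex, had 9.38 and 9.66 with anti-DR3, against 9.36 and 9.24 with control antibody, a difference of 0.22 ± 0.12 (adjusted p = 0.301, limma). Its anti-DR3 arrays lay far apart, and without anti-DR3 replicate 2 the difference was 0.08. Grap2, the adaptor Gads that joins SLP-76 to LAT, differed by -0.19 ± 0.092, Rasgrp1, the Ras activator that reads diacylglycerol, by -0.16 ± 0.087 and Themis, an adaptor known from thymocyte development, by -0.17 ± 0.11. The groups of Themis overlapped (adjusted p = 0.376, limma), and those of Grap2 and Rasgrp1 did not (adjusted p = 0.264 and 0.301, limma). With 1 array left out the difference ran from -0.27 to -0.10 for Grap2, from -0.24 to -0.09 for Rasgrp1 and from -0.28 to -0.06 for Themis.

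Prkcq, protein kinase C theta, which passes the signal to NF-kappaB, had 10.35 and 10.38 with anti-DR3, against 10.76 and 10.68 with control antibody. Both anti-DR3 arrays were the lower ones, and the difference of -0.35 ± 0.080 was the lowest of all members (adjusted p = 0.0622, limma). It passed the threshold under 4 alternatives at 0.05, with the stricter filter on dim genes (adjusted p = 0.0473, limma), centred arrays (0.0449), a pseudocount of 16 (0.0356) and a trended robust prior (0.00839). Over all alternatives its adjusted p ran from 0.00839 to 0.251, the highest with an array left out (limma), and its difference from -0.41 to -0.31.

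The other genes at this level differed less. Malt1, the protease of the complex below protein kinase C theta, had 10.41 and 10.41 with anti-DR3, against 10.02 and 10.32 with control antibody, and the gap between its control arrays exceeded the difference of 0.24 ± 0.11 (adjusted p = 0.246, limma), which ran from 0.10 to 0.39 with 1 array left out. Bcl10, its partner, had 8.27 and 8.33 with anti-DR3, against 8.43 and 8.15 with control antibody. Both anti-DR3 arrays lay between the control arrays, the difference of 0.0055 ± 0.11 was the smallest of all members, and its sign turned under centring and under quantile normalization. The NFAT genes were all higher on both anti-DR3 arrays, as were 3822 of the 12114 genes tested. Nfatc1 differed by 0.10 ± 0.080, Nfatc2 by 0.17 ± 0.091 and Nfatc3 by 0.08 ± 0.077, and none passed (adjusted p = 0.460, 0.312 and 0.580, limma). Under centring these differences were 0.044, 0.11 and 0.017.

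Of the inhibitors, 13 in all, 1 rose (4.49% of all genes passed as higher) and 0 fell (1.47% passed as lower); the median was 0.02, while among 24 activators 0 passed in limma, with a median of 0.04. At an unadjusted p of 0.05, 4 inhibitors were higher and 1 was lower, and 4 activators were higher and 1 was lower. Together these are 38.5% of the inhibitors and 20.8% of the activators, against 26.1% of all genes (16.6% higher, 9.57% lower). No overlap between groups was seen for 11 of 13 inhibitors and for 14 of 24 activators, against 56.1% of all genes. Members of either class thus lay on both sides of 0, and a test between the classes was not made because genes are not replicates. Cd6 was counted as an inhibitor, and Sh2d2a and Themis as activators, though each can be read both ways. With these left out of their class, the median was 0.0032 for inhibitors and 0.04 for activators. At an unadjusted p of 0.05 in limma, 4 of 12 inhibitors and 4 of 22 activators then passed.

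**Figure D2:**
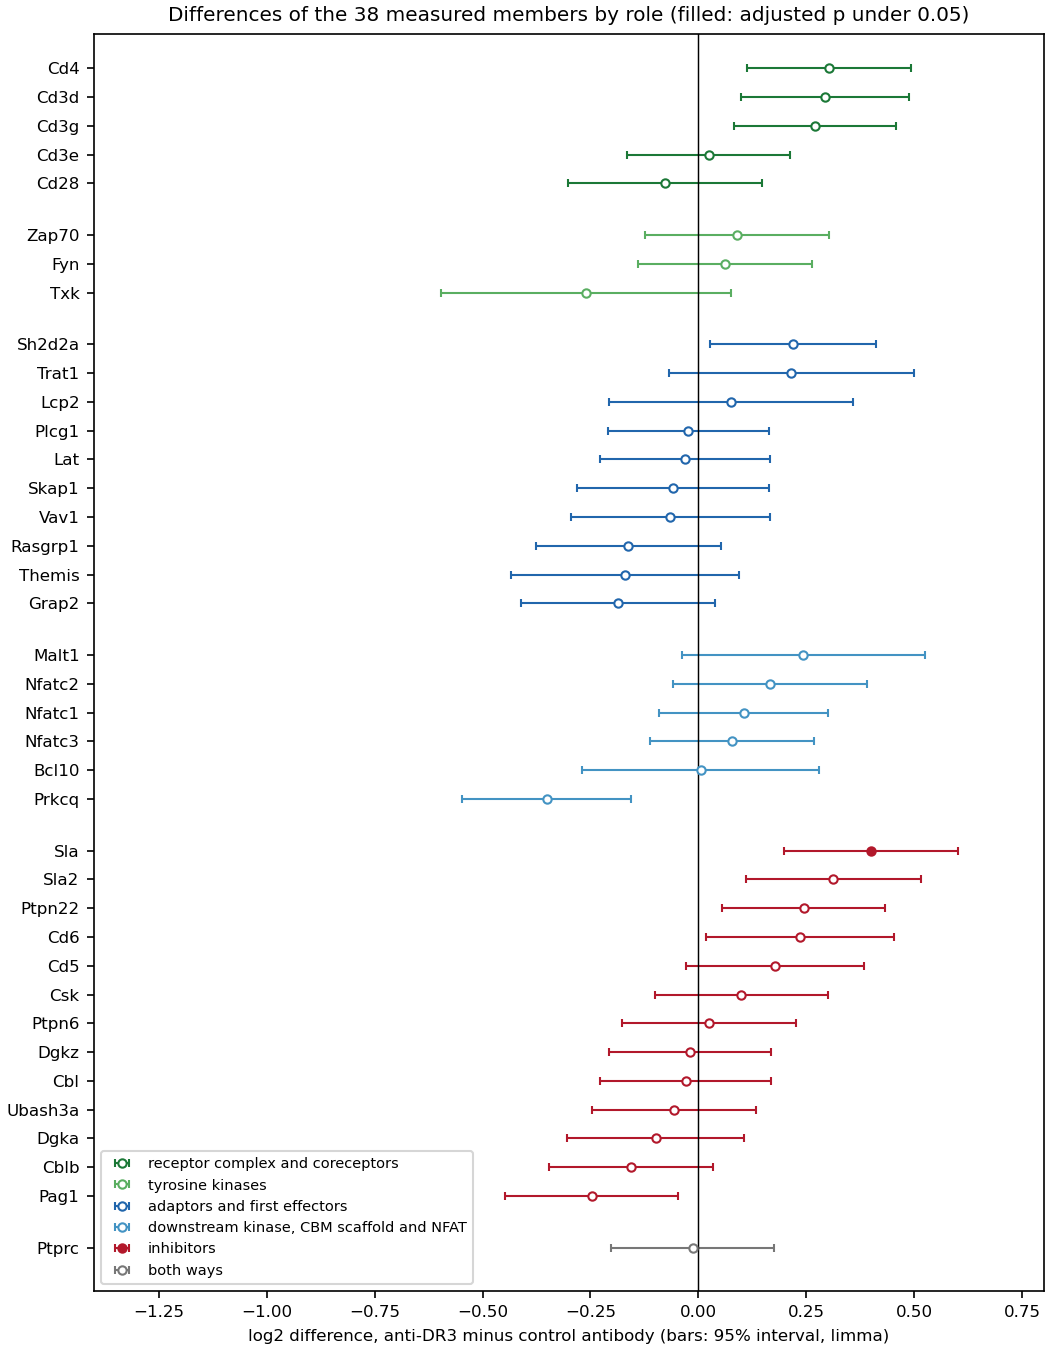
Log2 difference, anti-DR3 minus control antibody, of the 38 measured members (points) with its 95% interval from limma (bars), ordered within each role. The filled point, Sla at 0.40, passed an adjusted p of 0.05, and the intervals of 28 members include 0.

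Sla encodes SLAP, an adaptor that leads the ubiquitin ligase Cbl to the receptor complex and lowers its surface level, and Sla2 encodes its relative SLAP-2. Sla had 9.85 and 9.95 with anti-DR3, against 9.50 and 9.50 with control antibody. The control arrays were level, both anti-DR3 arrays lay above them, and the difference was 0.40 ± 0.082 or 1.32-fold (adjusted p = 0.0490, limma). In size 1156 of the 12114 genes tested, or 9.54%, differed more. Sla2 had 8.97 and 8.87 with anti-DR3, against 8.60 and 8.61 with control antibody, a difference of 0.31 ± 0.082 (adjusted p = 0.0809, limma). Both of its anti-DR3 arrays also lay above both control arrays, but it did not pass.

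The call of Sla sat at the threshold. It was lost with each array left out (adjusted p = 0.118 to 0.255, limma), with the replicate number as a block (0.0704), with no filter on dim genes (0.165), under centring (0.0754) and quantile normalization (0.0606), and in an ordinary linear model (0.237). The difference itself ran from 0.34 to 0.45 over these alternatives. Sla lies within the RefSeq span of Tg, the thyroglobulin gene, whose own probe set gave 5.60 and 5.81 with anti-DR3, against 5.90 and 5.93 with control antibody, a difference of -0.21 (adjusted p = 0.246, limma).

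Cbl and Cblb, the ubiquitin ligases that mark receptor chains and their kinases, did not pass. Cbl differed by -0.03 ± 0.081 with overlapping groups. Cblb had 9.96 and 9.96 with anti-DR3, against 10.10 and 10.14 with control antibody, a difference of -0.16 ± 0.077 (adjusted p = 0.264, limma). Ubash3a, the phosphatase-like Sts-2 that binds Cbl, differed by -0.06 ± 0.077 (adjusted p = 0.690, limma).

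The surface receptors CD5 and CD6, which dampen the receptor in thymocytes and T cells, are encoded by neighbouring genes on mouse chromosome 19. Cd5 had 11.48 and 11.45 with anti-DR3, against 11.35 and 11.23 with control antibody, a difference of 0.18 ± 0.084. Cd6 had 9.78 and 9.76 with anti-DR3, against 9.61 and 9.46 with control antibody, a difference of 0.23 ± 0.089. Both were higher on both anti-DR3 arrays, and their adjusted p-values were 0.250 and 0.167 (limma).

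Csk, its anchor PAG and the phosphatase PTPN22 act together on the Src kinases, Csk by phosphorylating their inhibitory tyrosine and PTPN22 by removing the activating phosphate. Ptpn22 had 10.33 and 10.37 with anti-DR3, against 10.12 and 10.09 with control antibody, and was 0.24 ± 0.077 higher (adjusted p = 0.120, limma). Pag1 ran the other way, at 7.53 and 7.49 with anti-DR3, against 7.80 and 7.71 with control antibody, a difference of -0.25 ± 0.082 (adjusted p = 0.129, limma). Neither passed, although the groups of both were apart. Csk differed by 0.10 ± 0.082, and Ptpn6, the phosphatase SHP-1, by 0.02 ± 0.082 (adjusted p = 0.493 and 0.886, limma). The sign of Ptpn6 turned under centring (-0.04) and quantile normalization (-0.0088).

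Dgka and Dgkz, the kinases that remove diacylglycerol and so limit Ras activation, differed by -0.10 ± 0.083 and -0.02 ± 0.077 (adjusted p = 0.504 and 0.909, limma). Dgka had 11.98 and 11.90 with anti-DR3, against 12.08 and 11.99 with control antibody. Dgkz had 8.75 and 8.72 with anti-DR3, against 8.75 and 8.75 with control antibody, all 4 nearly level. Dgkz was the 1 member with a further probe set, a dim one that gave -0.18. Ptprc, the phosphatase CD45, both frees Lck for activity and can oppose it, and was counted in neither class. It had 12.00 and 12.03 with anti-DR3, against 12.02 and 12.03 with control antibody, a difference of -0.01 ± 0.077.

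**Figure D3:**
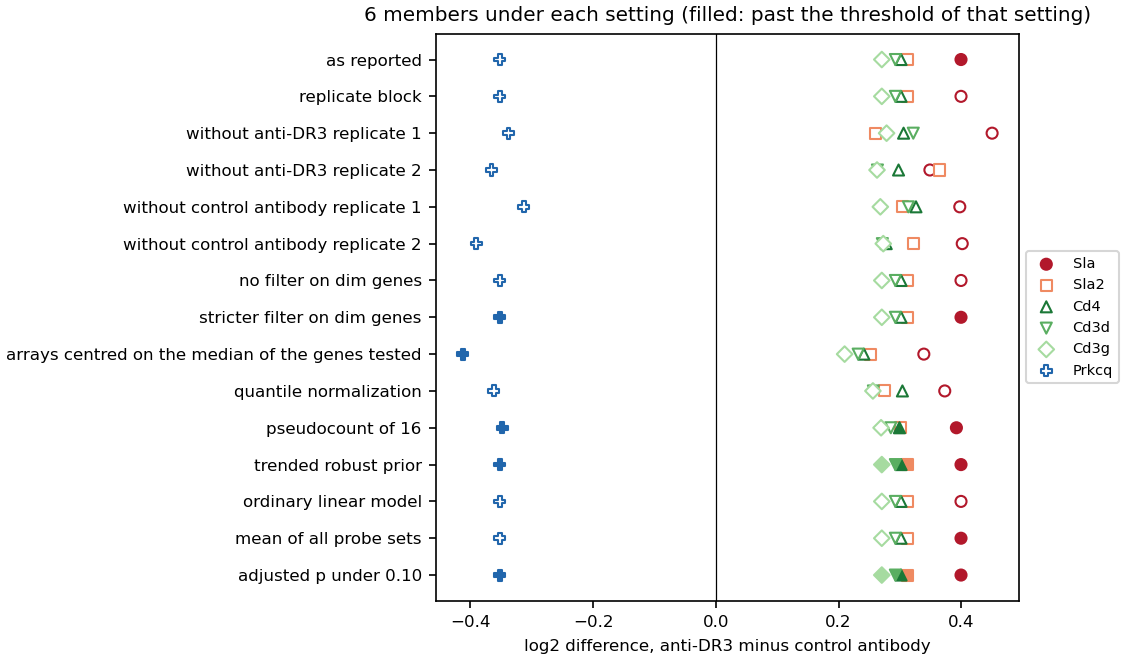
Log2 difference, anti-DR3 minus control antibody, of 6 members as reported and under each alternative; a filled marker passed the threshold of that setting (adjusted p under 0.10 in the last line, 0.05 in the others). Each of the 6 kept its direction under every setting drawn, while Sla was filled in 6 of 15 lines and Prkcq in 5. Only centring and quantile normalization could have turned the direction of these genes.

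The pathway was followed further with 76 other genes, listed from knowledge of the pathway, of which 64 had a probe set with a single symbol and 63 were bright enough to test. In limma 0 of them passed, where 5.96% of all genes did, and 18 of 63, or 28.6%, passed at an unadjusted p of 0.05 in limma, near the 26.1% of all genes, with both directions present (8 higher, 10 lower). Their median was 0.03, with 0.07 for 36 activators and -0.03 for 27 inhibitors, and groups were apart for 45 of 63, or 71.4%, against 56.1% of all genes. With other settings the count was 0 to 10. The 10 came with the trended robust prior (15.9%, against 11.9% of all genes), and an adjusted p under 0.10 gave 8 (12.7%, against 13.9%).

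Among the activators the differences of largest size were in Itpr2, Akt1 and Stim1. Itpr2, a receptor for inositol trisphosphate that releases calcium, differed by -0.38 ± 0.11 (adjusted p = 0.0955, limma). Akt1, the kinase below phosphoinositide 3-kinase, differed by 0.34 ± 0.080 and Stim1, the calcium sensor of the endoplasmic reticulum, by 0.27 ± 0.078 (adjusted p = 0.0650 and 0.0992, limma). Among the inhibitors these were Grap, a relative of the adaptor Grb2, Ptpn7, a phosphatase of MAP kinases, and Lax1, a membrane adaptor. Grap differed by 0.43 ± 0.10, Ptpn7 by 0.41 ± 0.12 and Lax1 by 0.37 ± 0.080 (adjusted p = 0.0683, 0.0955 and 0.0543, limma). In all 6 genes the groups did not overlap, which the choice by size made likely, and 56.1% of all genes did not overlap. Both anti-DR3 arrays were lower for Itpr2 and higher for the others. Next in size among the inhibitors were 2 lower genes, Nedd4 at -0.36 ± 0.097 and Rasa2 at -0.35 ± 0.077 (adjusted p = 0.0862 and 0.0545, limma). After them came 2 higher genes, Ptprj at 0.35 ± 0.10 and Map4k1 at 0.32 ± 0.10 (adjusted p = 0.102 and 0.121, limma). Of the 27 inhibitors tested 12 differed upward and 15 downward, and of the 36 activators 23 upward and 13 downward.

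**Figure D4:**
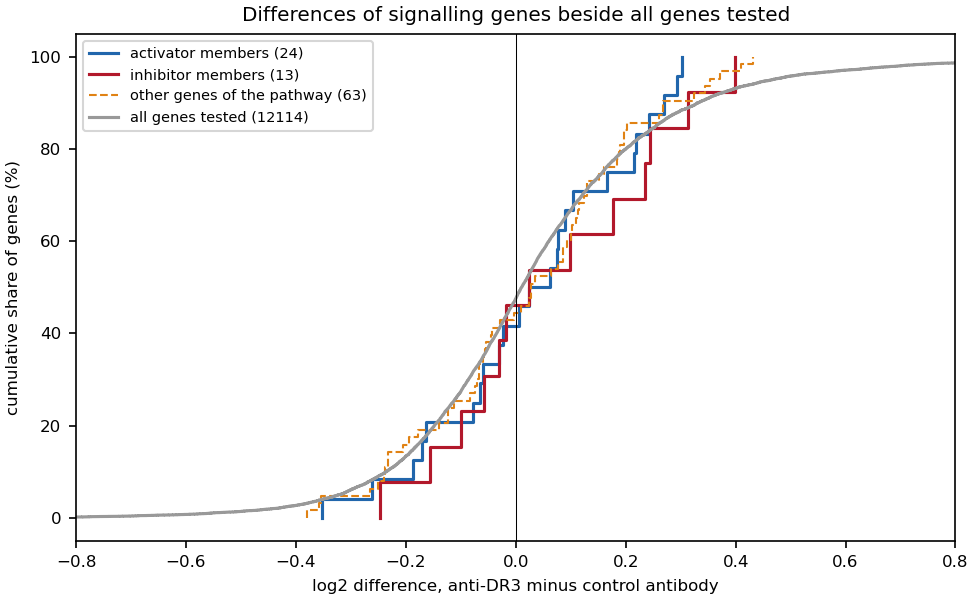
Cumulative share of genes (percent) against the log2 difference, anti-DR3 minus control antibody, for the activator and inhibitor members, the other genes of the pathway and all 12114 genes tested. The curves cross 50% at medians of 0.04, 0.02, 0.03 and 0.01, and the members end at -0.35 and 0.40 while the curve of all genes runs on in both directions.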

How the data were processed

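The authors deposited 1 intensity per probe set of an Affymetrix whole-transcript array, obtained with RMA according to the submitters' processing notes (program, version and build: not given in the sources used here). RMA forces the probe intensities of arrays to a shared distribution, which can hide a change common to all genes. The probe set values made from them need not share one, and their medians differed here. The values proved to be linear (array medians 40.2 and 40.4 with anti-DR3, 41.6 and 42.0 with control antibody), so log2 was taken. Of 41345 probe sets 23521 had 1 symbol, 1814 several and 16010 none listed in the platform annotation, and only the first kind was used. A gene was tested if it exceeded the median of all probe sets on 2 arrays or more (12114 of 22180). The test was limma 3.58.1 (R 4.3.3, lmFit with eBayes, two-sided, 2 residual and 3.94 prior degrees of freedom), p-values adjusted by Benjamini-Hochberg across every gene tested, a threshold of 0.05 and 95% intervals from the moderated error. The number of arrays limits the precision, and an exact permutation test of 2 against 2 cannot go below p = 0.333. Members and lists were chosen with earlier results of these data known. Named genes were all members (those past either p threshold, and the 3 largest and 3 smallest differences, with every array) and, of the other pathway genes, any that passed and the 3 of each class with the largest differences. Nedd4, Rasa2, Ptprj and Map4k1 were named in addition, after their values were seen. The replicate numbers in the titles do not say what replicates share. The fit was tested on simulated data with independent errors drawn from its own model, which cannot show how well it suits these replicates. The alternatives were the replicate block, each array left out, filter, scaling, pseudocount, variance model, probe set rule, class membership and threshold.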

Additional observations from a re-analysis of the deposited data

How the results depend on the processing

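Sla kept its direction under all 14 alternatives and its call under 5. A threshold of 0.10 could not have ended that call. Prkcq, Cd4, Cd3d, Cd3g and Sla2 also kept their direction, and passed under 5, 3, 2, 2 and 2 of the alternatives. For these genes only centring and quantile normalization could have turned the direction. The block, filter, variance model, probe set rule and threshold left their differences as they were. Their groups did not overlap, so leaving out an array or adding a pseudocount could not turn the sign. For the 38 members, alternatives left direction and call as they were in 492 cases, ended a call in 9, made one in 16 and turned the sign in 15. Under the block, filter, variance model and threshold settings the difference stays the same by design. No sign could turn in those cases, so the 492 are no measure of how stable the directions are. With each array left out, where a group of 1 array borrows its spread from the other, limma made 0 to 312 calls (0 to 245 higher, 0 to 67 lower), with 0 members, 0 activators, 0 inhibitors and 0 other pathway genes. The fit with 0 calls lacked anti-DR3 replicate 2 and had 1967 genes and 4 members at an unadjusted p under 0.05. Leaving out anti-DR3 replicate 1 gave 33, control antibody replicate 1 gave 96 and control antibody replicate 2 gave 312. In these fits the median of the members ran from 0.0024 to 0.037 and that of the inhibitors from -0.020 to 0.053.

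With no filter on dim genes 14 genes passed, 14 higher and 0 lower, and 0 members and 0 inhibitors. The stricter filter gave 890 genes (8.22%), 2 members (5.26%, Prkcq and Sla), 1 activator and 3 other pathway genes (Akt1, Lax1 and Rasa2, the last named after its values were seen). Centring gave 591 genes (4.88%), 348 of them higher, 1 activator (Prkcq), 0 inhibitors and 1 other pathway gene, with medians of -0.036 for members, -0.018 for activators and -0.036 for inhibitors. Under it Cd3e turned to -0.037, Bcl10 to -0.055 and Ptpn6 to -0.036. Quantile normalization gave 612 genes (5.05%), 0 members, 0 inhibitors and 1 other pathway gene, a median of -0.0088 for inhibitors, and turned Bcl10 to -0.040 and Ptpn6 to -0.0088. A pseudocount of 16 gave 1061 genes (8.76%), 3 members (7.89%, Cd4, Prkcq and Sla), 2 activators and 4 other pathway genes. The trended robust prior gave 1444 genes (11.9%, 1082 higher, 362 lower), 8 members (21.1%), 5 activators, 3 inhibitors and 10 other pathway genes. The ordinary linear model gave 0 genes, 0 higher and 0 lower (2087 at an unadjusted p of 0.05), 0 members and 0 inhibitors. An adjusted p under 0.10 gave 1689 genes (13.9%, 1171 higher, 518 lower), 6 members (15.8%), 4 activators, 2 inhibitors and 8 other pathway genes. With Themis, Sh2d2a and Cd6 left out of their class the median of the inhibitors was 0.0032. For none of these settings was the cause tested.

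With each array left out, 9 members turned sign, with ranges of -0.16 to 0.0078 for Cd28, -0.072 to 0.0098 for Lat, -0.071 to 0.22 for Lcp2, -0.14 to 0.026 for Skap1, -0.14 to 0.011 for Vav1, -0.13 to 0.14 for Bcl10, -0.026 to 0.076 for Ptpn6, -0.067 to 0.0071 for Cbl and -0.031 to 0.0045 for Ptprc. The replicate block gave 563 genes, of which 497 were shared with the fit without it, 0 members and 0 inhibitors. Same-numbered arrays shared little (r = 0.051 across genes between the replicate differences of each group), and 2 pairs cannot show whether the numbers pair the arrays.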
